A study of Rattus norvegicus with 6 samples.

Results

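The Mir344 family was followed through 6 small RNA libraries of rat INS-1 cells. Its members were taken by gene name, as every row of the deposited table whose symbol begins with Mir344 or rno-mir-344. The rule found 7 rows among 32883, and 458 rows in all carried a miRNA name. The 7 rows fall into 4 subtypes by letter, with 2 copies of subtype a (rno-mir-344a-1 and Mir344a-2), 3 of subtype b (Mir344b-1, Mir344b-2 and Mir344b-3) and 1 each of subtypes g and i. No row carried the letters c, d, e, f or h.

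INS-1 is an insulin-secreting line from a rat insulinoma, and the cells used here also carried an mCherry insulin reporter. Clonal lines were edited with CRISPR/Cas9 at the imprinted domain that is missing in Prader-Willi syndrome (PWS), and small RNA from 1 culture of each line was sequenced at 7.5 mM glucose. The 3 control lines (5-9, 2 and 16, here Control 1, 2 and 3) had lost the domain on the silent maternal chromosome only. The 3 PWS lines (3, 19-1 and 19-4, here PWS 1, 2 and 3) carried that same maternal deletion and had lost the paternal copy too, so neither copy was left. Every line after 5-9 was derived from 5-9, lines 19-1 and 19-4 were subclones of line 19, and line 3 had a larger paternal deletion with another proximal breakpoint. The comparison therefore asks what a cell with 1 paternal domain makes of each Mir344 copy, and what is read from the family where that copy is gone. Each line gave 1 library, so SDs measure the spread between clonal lines. Standard errors and p-values of the fitted differences start from that spread but also borrow from rows of a like level.

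A miRNA is cut from a hairpin transcript, first in the nucleus by Drosha and then in the cytoplasm by Dicer, and 1 arm of the hairpin is loaded into an Argonaute protein. The seed, bases 2 to 8 of the mature strand, pairs with target mRNAs and largely sets which of them are repressed. Mir344 genes are known from rodents. They lie in the PWS domain, from which only the paternal chromosome is expressed, together with the protein genes Ndn, Magel2 and Mkrn3 and the snoRNA clusters Snord116 and Snord115. In the RefSeq table for assembly GRCr8, all 7 genes lie on chromosome 1 on the minus strand, in the order Mir344b-2, Mir344b-1, Mir344b-3, Mir344a-2, rno-mir-344a-1, Mir344g and Mir344i, and the next protein-coding gene after Mir344i is Ndn. RefSeq names rno-mir-344a-1 Mir344-1. The files used Rnor_6.0, so no coordinates are given.

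The 8 mature names that RefSeq lists for the 7 genes are shown because the members differ, and in part agree, in their seeds. Sequences are from RefSeq (GRCr8), 5′ to 3′, with the seed in capitals.
rno-miR-344-5p: uCAGGCUCcuggcuagauuccagg
rno-miR-344a-5p: uCAGGCUCcuggcuagauu
rno-miR-344-3p: uGAUCUAGccaaagccugaccgu
rno-miR-344b-5p: aGUCAGGCugcugguuauauuc
rno-miR-344b-1-3p: gAUAUAACcaaagcccgacugu
rno-miR-344b-3p: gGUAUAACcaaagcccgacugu
rno-miR-344g: aGUCAGGCuccuggcaggaguc
rno-miR-344i: cUCUAGCCagggcuugacugca

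These names hold 6 different seeds. The seed GUCAGGC is common to rno-miR-344b-5p, listed for all 3 b copies, and to rno-miR-344g. Both 5′ names of subtype a begin 2 bases further into the same stretch of hairpin, so their listed seed is CAGGCUC. The 2 names differ only in where the 3′ end is placed, and both occur whole in the hairpins of rno-mir-344a-1 and Mir344a-2. On the 3′ arm, rno-miR-344b-1-3p and the site in Mir344b-2 and Mir344b-3 differ by the single substitution A2G, counted from the 5′ end of the mature strand, which lies within the seed. The 3′ arm of subtype a also differed between its copies by a single base, C21U from rno-miR-344-3p to the same site in Mir344a-2, outside the seed. In the Mir344i hairpin, the stretch matching rno-miR-344g differed from it by A16U.

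The hairpins of 6 genes are shown next, because their likeness limits how reads can be assigned. Every mature strand that RefSeq lists for the gene is in capitals, and Mir344b-3 is left out as a duplicate of Mir344b-2.
rno-mir-344a-1: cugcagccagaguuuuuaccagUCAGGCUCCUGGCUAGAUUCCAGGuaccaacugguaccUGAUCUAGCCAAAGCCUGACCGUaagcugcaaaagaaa
Mir344a-2: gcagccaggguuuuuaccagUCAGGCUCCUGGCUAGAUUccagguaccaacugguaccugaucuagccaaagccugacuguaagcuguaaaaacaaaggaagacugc
Mir344b-1: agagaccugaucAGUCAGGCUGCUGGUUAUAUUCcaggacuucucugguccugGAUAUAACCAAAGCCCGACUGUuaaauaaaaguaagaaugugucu
Mir344b-2: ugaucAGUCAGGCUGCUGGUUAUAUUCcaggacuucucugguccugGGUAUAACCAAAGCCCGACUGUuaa
Mir344g: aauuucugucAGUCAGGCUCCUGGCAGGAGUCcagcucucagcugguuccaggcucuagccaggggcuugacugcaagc
Mir344i: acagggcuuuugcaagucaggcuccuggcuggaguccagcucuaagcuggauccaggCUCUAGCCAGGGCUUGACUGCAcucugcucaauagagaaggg

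The hairpin of Mir344b-3 was identical to that of Mir344b-2 over all 71 bases. Mir344b-1 shared 98.6% of 71 aligned bases with both. The subtype a hairpins shared 95.8% of 96 aligned bases, with a common run of 69. Between subtypes a and b, identity ranged from 80.0% to 85.1%. Mir344g and Mir344i were 88.3% identical to each other and 66.2% to 76.9% identical to the a and b hairpins. The longest run found in all 7 hairpins was AGUCAGGCU, 9 bases on the 5′ arm, which contains the seed of rno-miR-344b-5p and rno-miR-344g. It was in 0 of 412 other rat hairpins in the RefSeq table, searched on the hairpin strand only.

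**Figure D1:**
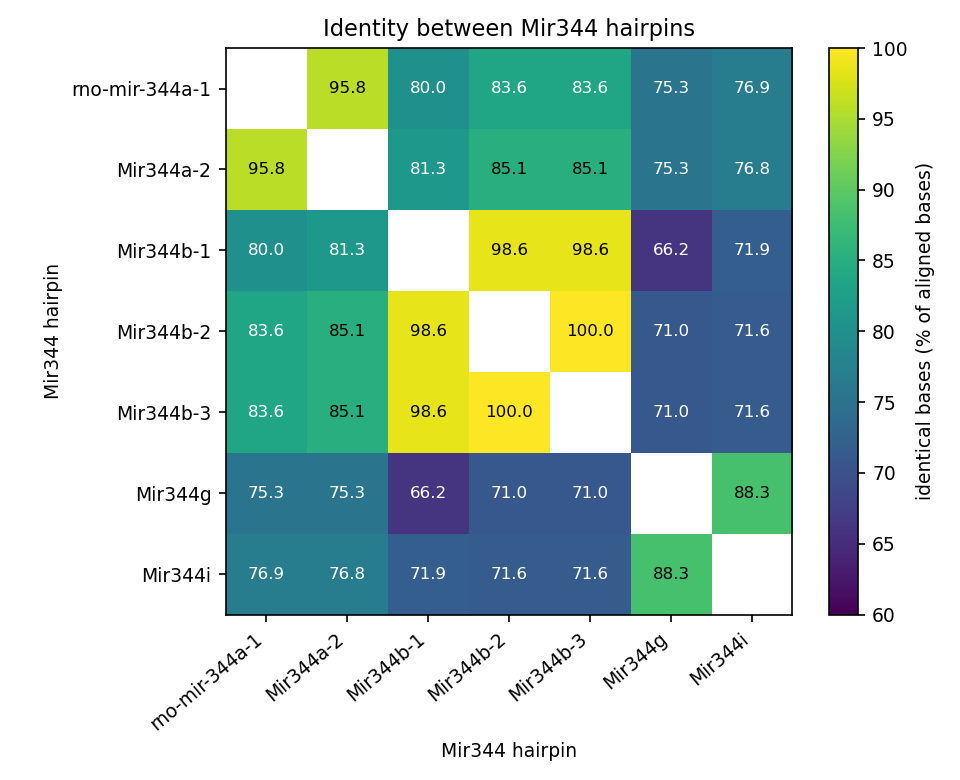
Identity between each pair of Mir344 hairpins, in percent of aligned bases, with the diagonal left blank. The a pair (95.8%), the b copies (98.6% to 100%) and the g and i pair (88.3%) stand out as 3 blocks.

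How alike the copies are decides how far a row can be read as a copy. Of the windows of 18 bases in each hairpin, 100% of those in Mir344b-2 and Mir344b-3, 64.2% in rno-mir-344a-1, 57.8% in Mir344a-2 and 44.4% in Mir344b-1 also occurred in another member. In Mir344g and Mir344i the shares were 1.61% and 1.22%. Reads of the a copies, and of the b copies, cannot be placed with certainty, and their subtype sums are firmer than the rows. All 7 rows held the same reads in both tables, counted with reads of several genes kept or left out. Yet the identical Mir344b-2 and Mir344b-3 held unequal reads, 13 and 27 in line 5-9. Reads fitting both were thus not counted for each, and the agreement of the tables says nothing about ambiguity between copies.

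In the control lines the family was dominated by subtype a. Values are in normalized reads, meaning reads divided by the size factor of their library, with mean ± SD over 3 lines. The family sum was 2981 in line 5-9, 2073 in line 2 and 2369.6 in line 16, or 2475 ± 463. Subtype a made up 85.4% of the 7684 family reads of the control lines (95% exact binomial interval 84.6% to 86.2%), subtype b 8.91% (8.29% to 9.57%) and Mir344g 5.65% (5.14% to 6.19%). These intervals cover counting error only. The make-up moved little from line to line, with subtype a at 85.6%, 84.7% and 85.6% of the family reads in lines 5-9, 2 and 16.

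**Figure D2:**
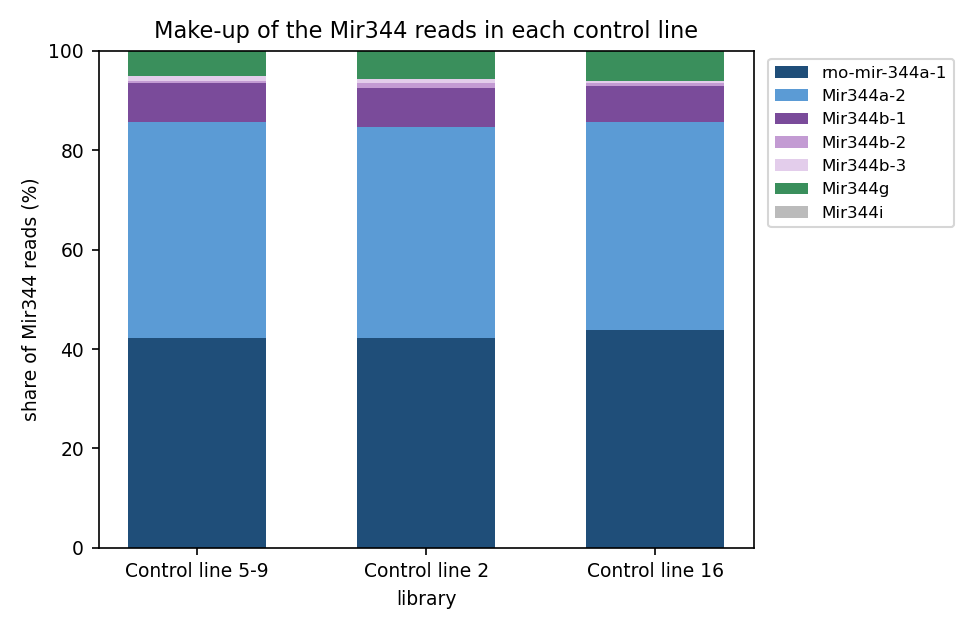
Share of the Mir344 reads (%) taken by each row in the 3 control libraries, as bars stacked to 100%. rno-mir-344a-1 and Mir344a-2 each hold between 41.7% and 43.9% in every line, and Mir344i is too small to see.

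The rows of subtype a held nearly the same reads, though reads that fit both copies cannot be placed with certainty. rno-mir-344a-1 (ENSRNOG00000049433) had 1259.7 normalized reads in line 5-9, 877 in line 2 and 1040.1 in line 16, a mean of 1059 ± 192. Mir344a-2 (ENSRNOG00000046685) had 1293 in line 5-9, 879.8 in line 2 and 988 in line 16, a mean of 1054 ± 214. Both were highest in line 5-9 and lowest in line 2, and the gap between the rows was smaller than the spread of either over the lines. The ratio of reads in rno-mir-344a-1 to reads in Mir344a-2 was 0.974, 0.997 and 1.05 in lines 5-9, 2 and 16.

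The members of subtype b were not evenly filled. Mir344b-1 (ENSRNOG00000049100), the copy with its own 3′ seed, had 235 normalized reads in line 5-9, 161 in line 2 and 174 in line 16, a mean of 190.2 ± 39.7. Mir344b-2 (ENSRNOG00000049216) had 12.8, 19.6 and 14.7 (15.7 ± 3.52), and Mir344b-3 (ENSRNOG00000047759) 26.6, 17.0 and 7.72 (17.1 ± 9.44), in the same order of lines. Mir344b-1 was thus above both other b rows in all 3 lines. The identical pair had like means but not the same order of lines, since Mir344b-2 was highest in line 2 and Mir344b-3 in line 5-9, on 47 and 50 control reads. Mir344b-1 held 5.97, 4.39 and 7.79 times the reads of the other b rows together.

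The members of subtypes g and i, close in sequence, were far apart in level. Mir344g (ENSRNOG00000049846) had 153 normalized reads in line 5-9, 119 in line 2 and 145 in line 16, a mean of 138.9 ± 17.7. Mir344i (ENSRNOG00000045909) had a single read, in line 5-9, and 0 in the other control lines and in every PWS line. The control lines of Mir344g did not overlap those of Mir344b-1, which was the higher within each line, by a ratio of 1.54, 1.35 and 1.20.

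The rank of each row was taken among the 458 miRNA rows by control mean of reads as counted, not per length, rank 1 having the most reads. rno-mir-344a-1 and Mir344a-2 stood next to each other between Mir760 at rank 114 (1069 ± 121) and Mir1224 at rank 117 (985 ± 72.0), and each of these rows differed from the next by less than either SD. Mir344b-1 ranked 166, Mir344g 177, Mir344b-3 233, Mir344b-2 234 and Mir344i 319, in a list in which 334 rows had any control read. The a copies kept ranks between 112 and 121 in the single control lines, whereas Mir344b-3 ranged from 223 in line 5-9 to 245 in line 16. If the family were 1 row it would rank 98, between Mir32 (2744 ± 147) and Mir324 (2413 ± 179), and its own SD reached past both. Per base of the RefSeq hairpin, known for 419 of the rows, rno-mir-344a-1 ranked 114 with Mir344a-2 next to it, Mir344b-1 158, Mir344g 163, Mir344b-3 208 and Mir344b-2 211.

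**Figure D3:**
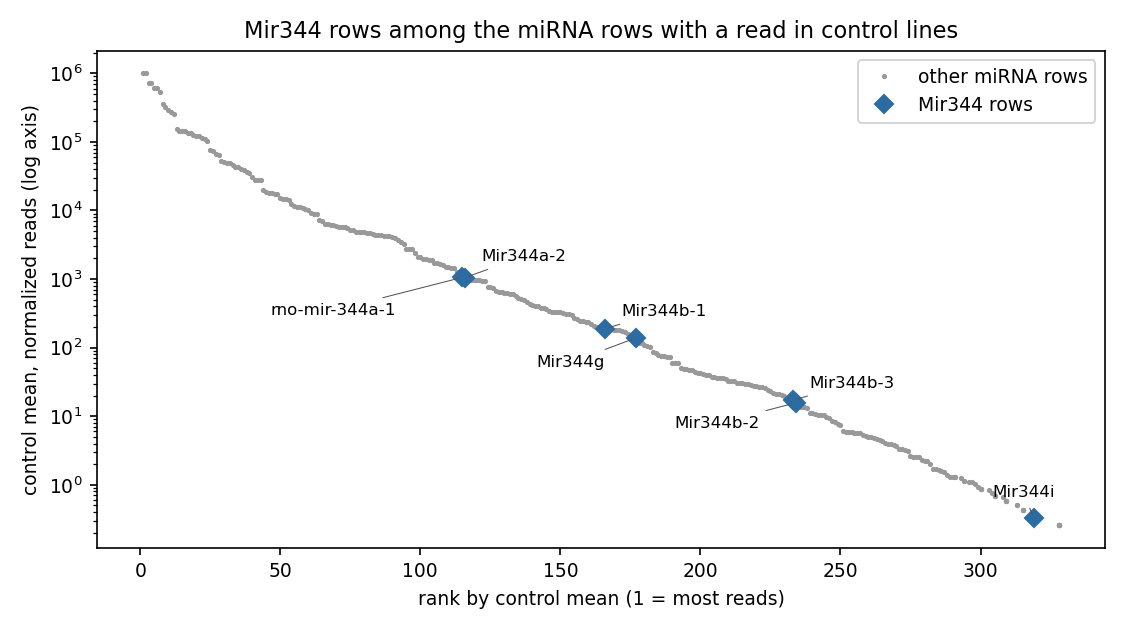
Control mean in normalized reads (log axis) against rank for the miRNA rows with a control read, Mir344 rows as blue diamonds. The 7 rows form 4 steps, the a copies just below rank 114, then ranks 166 and 177, 233 and 234, and 319.

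The spread of the family over the control lines was set beside that of other miRNAs. The family sum had a coefficient of variation of 18.7%. Among the 178 other miRNA rows with a control mean of at least 100, the median was 14.9% with quartiles of 10.4% and 24.7%. Line 5-9 was the highest control line for the a copies, Mir344b-1, Mir344b-3 and Mir344g, and it was also highest for 112 of the 178 other rows. Relative to their own control means, Mir344 stood at 1.20, 0.838 and 0.957 in lines 5-9, 2 and 16, and the summed Snord116 rows at 1.175, 0.742 and 1.08, both highest in line 5-9. The Snord115 rows stood at 1.16, 0.614 and 1.22 and Snord107 at 0.939, 0.795 and 1.27, both highest in line 16. All 4 were lowest in line 2. These are descriptions of 3 libraries and were not tested.

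In the PWS lines almost nothing was left of the family. Over all 7 rows there were 4 reads in line 3, 0 in line 19-1 and 3 in line 19-4, against 3027, 1586 and 3071 in lines 5-9, 2 and 16. In normalized reads this is 2.38, 0 and 3.96, a mean of 2.11 ± 1.99, or 0.0853% of the control mean. The lowest control line lay far above the highest PWS line, with no overlap. The family sum was 1211-fold lower by reads (95% exact counting interval 588 to 3013). On the scale of log2(normalized reads + 1) it fell by 9.90 ± 0.46 (SE; limma-trend, adjusted p = 6.83e-11 over all rows tested). Bulk RNA alone does not tell fewer cells with the transcript from less of it per cell. The paper reports the PWS lines as clonal and homozygous for the deletion, by copy number and in situ hybridization.

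The remaining PWS reads were spread thinly over the most abundant copies. Of the 7 reads, 3 were in Mir344a-2, 2 in rno-mir-344a-1, and 1 each in Mir344b-1 and Mir344g. The 0 in line 19-1 allows up to 0.127% of the control mean (3 reads). The source of these 7 reads was not tested.

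**Figure D4:**
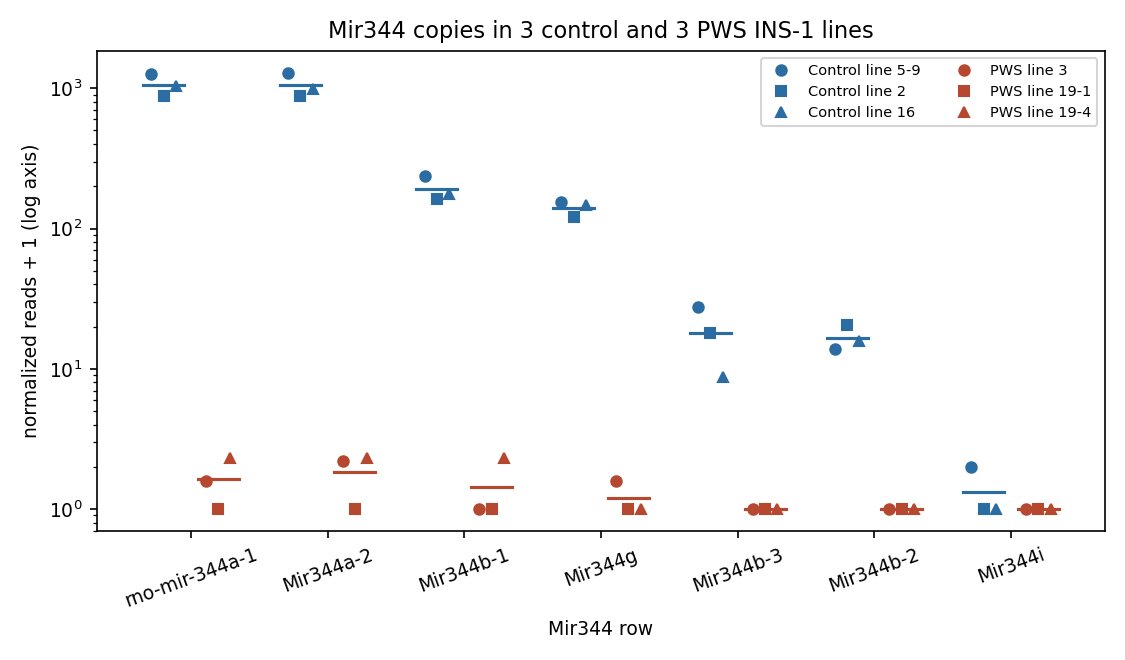
Normalized reads + 1 (log axis) of each Mir344 row in the 6 libraries, control lines blue and PWS lines red, with bars at the group means. For every row but Mir344i, all 3 control lines are above all 3 PWS lines.

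A share taken within each library does not use the size factors. Mir344 made up 284, 233 and 249.8 of every 1000000 miRNA reads in lines 5-9, 2 and 16, a mean of 256 ± 26.2. In lines 3, 19-1 and 19-4 it made up 0.271, 0 and 0.460, a mean of 0.244 ± 0.231. The groups did not overlap, and the exact two-sided permutation test gave p = 0.1, the smallest value that 3 lines against 3 can give.

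Each subtype sum was lower in the PWS lines. Subtype a had 1.78, 0 and 2.64 normalized reads in lines 3, 19-1 and 19-4 against 2113 ± 405 in the controls, a 1448-fold difference by reads (620.4 to 4462) and a log2 difference of -9.92 ± 0.41 (limma-trend, adjusted p = 2.98e-11). Subtype b had 0, 0 and 1.32 against 223 ± 44.9, and its log2 difference was -7.38 ± 0.41 (limma-trend, adjusted p = 5.66e-10). Subtype g had 0.594, 0 and 0 against 138.9 ± 17.7, and its log2 difference was -6.90 ± 0.38 (limma-trend, adjusted p = 5.66e-10). The 3 log2 differences follow the control levels, since a PWS value near 0 leaves the added 1 read to set the scale. With a pseudocount of 5 they were -8.36, -5.38 and -4.79 for a, b and g. Subtype i had too few reads to test.

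By row, 6 of the 7 members had a mean of at least 5 normalized reads and were tested, and all 6 were called lower in the PWS lines at adjusted p under 0.1. Of all 4292 rows tested, 1.28% (55) were called lower and 0 higher by limma-trend. At an unadjusted p under 0.05, 93 rows were higher, and edgeR and DESeq2 also called 0 higher. Members such as these pass a filter on the mean through their control values, so the count describes the rows and is no further support. All 3 PWS lines were below all 3 control lines for the 6 tested members, and also for 6.29% of all tested rows and 10.7% of the other tested miRNA rows.

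The rows differed in how much data stood behind the call. rno-mir-344a-1 had 0.594, 0 and 1.32 normalized reads in lines 3, 19-1 and 19-4, 1819-fold below the controls by reads (503 to 15029.8), and fell by 9.41 ± 0.36 on the log2 scale (limma-trend, adjusted p = 1.29e-11). Mir344a-2 had 1.19, 0 and 1.32, 1201-fold below (411 to 5828), and fell by 9.24 ± 0.37 (adjusted p = 2.01e-11). Both counting intervals are wide, because 2 and 3 PWS reads set them.

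Mir344b-1 had 0, 0 and 1.32 normalized reads in the PWS lines and fell by 7.15 ± 0.41 on the log2 scale (limma-trend, adjusted p = 9.81e-10). Its reads gave a 649-fold difference (115.99 to 25668). Mir344g had 0.594, 0 and 0 and fell by 6.90 ± 0.38 (adjusted p = 6.67e-10), with a ratio of 479 by reads (85.5 to 18957).

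Mir344b-2 and Mir344b-3 had 0 reads in all 3 PWS lines. Against a limit of 3 reads over the PWS group, Mir344b-2 was at least 17.3-fold and Mir344b-3 at least 18.4-fold lower. Their adjusted p-values (limma-trend) were 0.0308 and 0.0431, the weakest among the members. Leaving out any single control line ended the call of Mir344b-2 (adjusted p = 0.725 without line 5-9, 0.589 without line 2 and 0.627 without line 16). The call of Mir344b-3 was lost without line 2 (0.57) or line 16 (0.196), and without line 5-9 its mean was too low to be tested. A pseudocount of 0.5 ended both calls, with adjusted p = 0.277 for Mir344b-2 and 0.316 for Mir344b-3, as did limma-voom (0.121 and 0.367). Over all alternatives tried, the adjusted p ran from 2.32e-06 to 0.725 for Mir344b-2 and from 2.69e-06 to 0.57 for Mir344b-3.

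**Figure D5:**
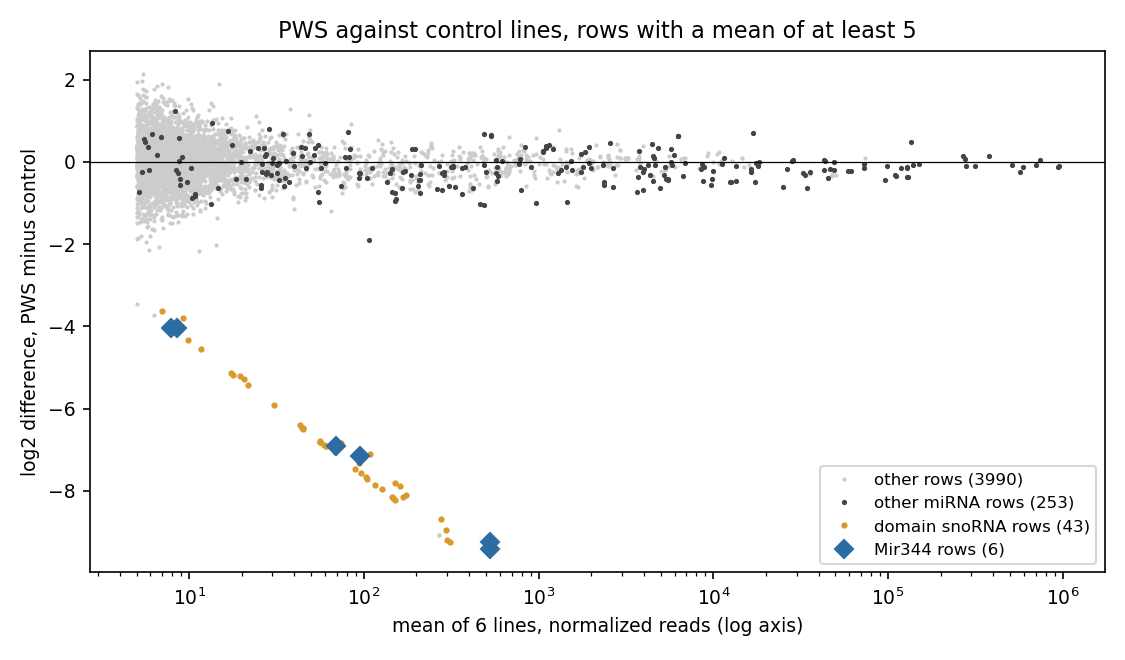
Log2 difference, PWS minus control, against the mean of the 6 lines (log axis) for 4292 tested rows, coloured by class. The 6 Mir344 rows, between -9.41 and -4.03, lie on the same slope as the domain snoRNA rows, where PWS values are near 0 and the control level sets the difference.

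Other miRNAs gave the comparison for the family. Of 253 tested miRNA rows outside the family, 2 (0.791%) were called, Mir3065 (log2 difference -1.05, limma-trend, adjusted p = 0.0642) and Mir135b (-1.89, adjusted p = 0.0781). The median log2 difference was -7.03 over the 6 tested Mir344 rows, -0.14 over the other miRNA rows and 0.0048 over all rows. The count ran from 0 to 5 over the alternatives tried, with 0 called by limma-trend without line 5-9 or without line 19-1 and 1 without line 2, 16 or 19-4.

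The other small RNAs of the domain were read beside the family. Of 96 rows named Snord116, Snord115 or Snord107, 43 passed the filter on the mean. Of these, 42 were called lower, with a median log2 difference of -6.91, against 1.28% of all tested rows. These rows too pass the filter through their control values, so the count and median describe them and are no further support. The sum over 36 Snord116 rows was 7492 ± 1711 normalized reads in control and 2.61 ± 1.17 in PWS lines. Snord115 rows summed to 275 ± 92.3 and 0.439 ± 0.761, and Snord107 to 217 ± 52.3 and 0.637 ± 0.66. The library kit was made for short RNA, so levels of snoRNAs and miRNAs are not set against each other.

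The protein genes of the domain gave few reads in these libraries. Ndn, Magel2 and Atp10a, the last a flanking gene, were at 0 in all 6 lines. In the control lines together, Mkrn3 had 4 reads, Peg12 2, Snurf 14 and Snrpn 7, and all were at 0 in the PWS lines. Ube3a, a ubiquitin ligase gene next to the domain, had 9.53 ± 0.83 normalized reads in control and 15.0 ± 4.08 in PWS lines (limma-trend, adjusted p = 0.864).

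Each row's log2(normalized reads + 1) was centred on its own control mean. By the root mean square difference of these values over the 6 lines, the rows most like the Mir344 sum were snoRNA or clone-named rows. Among 4286 rows, whose median distance was 7.06, the nearest were SNORD116 rows ENSRNOG00000059940 (0.845), ENSRNOG00000051811 (0.872) and ENSRNOG00000058825 (0.958), and the clone-named rows AABR07005711.2 (0.914) and AABR07005710.1 (0.923). Each had 0 or a single read over the PWS lines. The measure ranks rows mostly by a high control level joined to a PWS level near 0.

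The study also assigns to miR-344, by identifier, 4 rows that carry only the clone name AABR07003935. AABR07003935.1 had 18.7, 18.3 and 8.49 normalized reads in lines 5-9, 2 and 16, and AABR07003935.14 had 16.7, 18.3 and 14.7. AABR07003935.4 had 17.7, 11.8 and 8.49, and AABR07003935.6 had 11.8, 9.15 and 9.26. All 4 were at 0 in every PWS line and together reached 54.5 ± 12.3 in the controls, on 163 reads. AABR07003935.14 and AABR07003935.1 were called lower (limma-trend, adjusted p = 0.0163 and 0.0626), and AABR07003935.4 and AABR07003935.6 were not (0.215 and 0.609). RefSeq sequences could not be matched to these names, and they are not counted as members.

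Seeds shared with other miRNAs were searched among 685 mature rat names. Only 2 had a seed of the family, and they are shown to set the shared seed against the rest of the strand.
rno-miR-410-3p: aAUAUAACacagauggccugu
rno-miR-484: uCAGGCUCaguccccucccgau

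rno-miR-410-3p has the seed of rno-miR-344b-1-3p, and its gene Mir410 had 4 reads over the control lines and 0 over the PWS lines, too few to test. rno-miR-484 has the seed listed for the 5′ arm of subtype a. Its row Mir484 had 326, 354 and 253 normalized reads in lines 5-9, 2 and 16 and 245, 371 and 165 in lines 3, 19-1 and 19-4, so the groups overlapped. Its log2 difference was -0.32 ± 0.31 (limma-trend, adjusted p = 0.889), and that of the near-duplicate row rno-mir-484 was -0.26 ± 0.30 (adjusted p = 0.904). Of the seed-sharing rows, 0 of 2 were called, by edgeR and DESeq2 too, with 0 at an unadjusted p under 0.05.

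The labelled cell type was checked against its markers. The β-cell list (5 of 5 with a row: Mir375, Mir7a1, Mir7a2, Ins1 and Ins2) summed to between 1901536 and 3329373 normalized reads in the control and between 2048252 and 2842578 in the PWS lines, nearly all of it from the miRNAs. The insulin gene rows were low in these small RNA libraries. Ins1 had between 88.3 and 285 normalized reads over the 6 lines. Ins2 had 22.7, 10.5 and 30.1 in lines 5-9, 2 and 16 and 16.0, 6.30 and 0 in lines 3, 19-1 and 19-4. Blood miRNAs (3 of 3 rows) summed to between 46.2 and 77.8 over the 6 lines, Mir126a of endothelium to between 13.9 and 35.6, and the listed muscle miRNAs (2 of 4 with a row) to at most 2.61, with Mir133b at 0 throughout. The lists were matched by exact symbol, and rows under related symbols were not in these sums. Among them, Mir1b and Mir133a-2 of muscle had control means of 36.5 and 0.586. Mir199a2 and Mir199b of mesenchyme had 44.0 and 42.5, and Mir128-2 of neurons had 4710. Of the mesenchyme list, 2 of 3 had a row, Mir145 was at 0, and the sum was 13.1 to 39.4 in control and 35.7 to 48.8 in PWS lines. Of the neuronal list, 4 of 7 had a row and the sum was 5934 to 6707 in control and 3397 to 6403 in PWS lines, most of it Mir128-1. The part of these markers in the Mir344 values was not tested.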

How the data were processed

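Small RNA from 6 INS-1 lines was sequenced with a miRNA kit carrying unique molecular identifiers and a widened size selection. Per the labels' processing notes and the methods, the authors used UMI-tools 1.0.0, cutadapt 1.18, Bowtie2 2.3.4.2, Rnor_6.0 with a custom annotation, HTSeq 0.11.2 and DESeq2, and featureCounts is listed without a role. The 2 deposited tables hold a signal, reads per gene divided by a DESeq2 size factor. They were counted with the HTSeq option that keeps reads of several genes (main table) or leaves them out. For the Mir344 rows the option made no difference to the reads. All values were whole multiples of 1 read (100% within 0.001). The recovered reads totalled between 7373691 and 16480475 a library. The authors' columns of mean, fold change and p-values were not used.

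Here, log2(normalized reads + 1) of rows with a mean of at least 5 was fitted with limma-trend (limma 3.58.1, R 4.3.3) on genotype. p-values were adjusted by Benjamini-Hochberg over all rows and called under 0.1. Family and subtype sums replaced their rows in fits of the whole table. Intervals are exact at 95% and cover counting error only, and limits at 0 are 3 reads. Alternatives were pseudocounts, filters, TMM and upper-quartile scaling, edgeR 4.0.16, DESeq2 1.42.0, limma-voom, the second table, a replicate block, averaged subclones and each line left out. Named genes were all members, the rows assigned by the study alone, seed-sharing miRNAs, neighbours in rank, domain genes and the 5 nearest rows by pattern. The members and lists were chosen with earlier results of these data known. Hairpins were aligned with Biopython 1.88. The fit was tested on simulated data.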

Additional observations from a re-analysis of the deposited data

How the results depend on the processing

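Depth limits the low copies: Mir344b-2, Mir344b-3 and Mir344i rest on 47, 50 and 1 control reads. The family sum was called under all 21 alternatives, with log2 differences from -10.38 to -8.47, and from -10.38 to -9.23 without any 1 line. Its adjusted p depended strongly on the setting, from 8.90e-235 (limma-trend without a filter) to 2.05e-04 (limma-voom). With the 4 clone-named rows added, an alternative chosen after seeing the data, the family sum was also called. The sums of subtypes a, b and g were called under all 20 alternatives, but the size of the log2 difference depended on the setting, from -10.49 to -8.36 for a, from -9.38 to -5.38 for b and from -8.70 to -4.79 for g. Between 4 and 6 Mir344 rows were called. Where only 4 were, Mir344b-2 and Mir344b-3 were not called or, as with a filter at a mean of 20, too low to be tested. Over all rows, the calls ran from 41 of 1087 tested (filter at a mean of 20) to 66 of 17119 (no filter). For domain snoRNA rows they ran from 34 of 34 (filter at a mean of 20) to 44 of 51 (filter at a mean of 1). The count of other miRNA rows, 2 in the reported fit, was 1 with a pseudocount of 0.5 and with a filter at a mean of 20, 5 without a filter, and 0 with upper-quartile scaling, a threshold of 0.05 or lines 19-1 and 19-4 averaged, and between 0 and 2 without any 1 line. At an unadjusted p under 0.05 limma-trend gave 24, 34 and 19 rows in the 3 settings just named that gave 0, and 19 and 32 without line 5-9 and without line 19-1. edgeR and DESeq2 each called 2. The cause of these shifts was not tested. No direction was reversed. Calls higher in the PWS lines, 0 in the reported fit, were 1 with a filter at a mean of 1, 3 without a filter and 2 without line 3.

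Deviations of same-numbered lines correlated at 0.414, 0.218 and -0.06 over 1087 rows. Differently numbered lines were not compared, so these values do not settle whether the replicate numbers pair the lines. With the replicate number as a block, 56 rows were called instead of 55, with 55 shared, and the 6 Mir344 rows were called.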
